A study of Mus musculus with 12 samples.

Results

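The nuclear genome encodes most subunits of the mitochondrial respiratory chain and of ATP synthase, and the RNA of these genes was followed in the cerebral cortex of mouse pups with and without the epidermal growth factor receptor Egfr. Members were chosen by name: gene symbols that begin as the subunits of complexes I to V do (Nduf followed by a, b, c, s or v and a digit, Sdha to Sdhd, Uqcr, Cyc1, Cox4 to Cox8, Atp5), without processed copies carrying -ps in their symbol, and with a mean CPM (counts scaled to a common library total) of 1 or more over the 12 libraries. The names matched 92 of the 55357 genes, and 82 of these (81 symbols) reached the minimum. The rule uses names and the mean level and no difference between groups, but it was chosen with earlier results of these data known.

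The study compared postnatal day 5 pups of 2 genotypes, with 3 animals each. Controls are described in the protocol as EgfrF/+, with 1 floxed and 1 intact Egfr allele, and in the genotype field as WT; the labels do not say whether they also carry Cre. The conditional knockouts (cKO) are Nestin-EgfrF/F, with both Egfr alleles floxed and Cre driven from Nestin, a gene of neural progenitors, so that vessels, meninges, blood and microglia lie outside the lineage Cre is aimed at. From each pup, cortex with hippocampal formation was cut into a rostral and a caudal piece and each piece gave 1 library, which makes 4 groups of 3 libraries. The animal numbers in the sample titles are T4, T8 and T70 for controls and T3, T6 and T80 for cKO pups, and a number shared by a rostral and a caudal library was taken as 1 animal; litters are not given.

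Electrons enter the chain at complex I (NADH dehydrogenase) or complex II (succinate dehydrogenase), pass through complex III (cytochrome bc1) and complex IV (cytochrome c oxidase) to oxygen, and the protons pumped on the way drive complex V, the ATP synthase. Complexes I, III, IV and V combine subunits from the nuclear and the mitochondrial genome, while complex II is entirely nuclear. Core subunits carry the redox centres or the catalytic sites, and accessory subunits hold the complexes together. In the early postnatal cortex the demand for respiration grows as neurons mature and form synapses. By complex, the members were 37 genes of complex I (7 core, 30 accessory), 4 of complex II, 9 of complex III, 14 of complex IV and 18 of complex V, spread over 19 chromosomes with 3 on the X (Ndufa1, Ndufb11 and Cox7b).

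Libraries held between 43810241 and 87170063 counts, so each member rested on at least 34 counts in every library, and 79 members had a mean of 10 CPM or more. Egfr itself stood at 41.8, 39.7 and 48.9 CPM in the control rostral libraries (T4, T8, T70) and at 10.3, 6.37 and 12.6 CPM in the cKO rostral libraries (T3, T6, T80). Caudally it stood at 45.4, 39.1 and 40.2 CPM in controls and at 5.81, 14.6 and 9.49 CPM in cKO pups, and every cKO library lay below every control library. With the 2 pieces of an animal summed, the log2 fold change of Egfr was -2.10 (SE 0.11, edgeR adjusted p = 0.00190). The rostral piece of cKO pup T6 differed in makeup from the other 11 libraries: 8.18% of its counts came from mitochondrially encoded genes, against 1.85% to 3.98% elsewhere, its 5 astrocyte markers (Aqp4, Slc1a3, Aldh1l1, Gja1, Slc7a10) summed to 388 CPM against 846 to 1225 CPM in the others, and its 5 meningeal fibroblast markers to 19.4 CPM against 88.5 to 563 CPM. Among controls T4 and T8 were female and T70 male by their sex-linked transcripts, and among cKO pups T3 was female and T6 and T80 male. Neuron markers were abundant in all 12 libraries (5 genes summing to 5382 to 8310 CPM).

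Levels are compared between genes as TPM, which divides each count by the gene's exonic length before scaling to a common total. The median member stood at 110 TPM. The most abundant was Atp5a1, the alpha subunit of the catalytic head of ATP synthase, at 665 ± 97.7 TPM (mean ± SD, 12 libraries). Cox6b1, a small subunit on the intermembrane side of complex IV, followed at 646 ± 99.9 TPM. Complex I members ran from Ndufb2 at 15.8 ± 2.52 TPM to Ndufc2 at 255 ± 41.7 TPM, both accessory subunits. Complex II ran from the membrane anchor Sdhc at 69.99 ± 14.99 TPM to the other anchor Sdhd at 161 ± 33.3 TPM, and complex III from Uqcrq at 89.8 ± 16.1 TPM to Uqcr10 at 245 ± 51.8 TPM. In complex V the lowest was Atp5l, subunit g, at 21.1 ± 4.04 TPM. Ranks by TPM depend on the exonic length listed for each gene. Ndufb2 stood at 28.4 CPM over 5628 listed bases and Atp5l at 43.3 CPM over 6443, whereas Ndufs5 stood at 28.6 CPM over 860. By complex, the median member stood at 95.8 TPM in complex I, 119 TPM in complex II, 177 TPM in complex III, 206 TPM in complex IV and 134 TPM in complex V.

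Several subunits exist as isoforms used in different tissues, and for subunits 6a and 4 and for Ndufa4 the cortex held mainly 1 of the pair. Cox6a1, the widely used isoform of subunit 6a, stood at 472 ± 61.1 TPM and Cox6a2, the heart and muscle isoform, at 6.27 ± 3.92 TPM, the lowest member level. Ndufa4, now counted with complex IV, stood at 234 ± 33.7 TPM and its paralog Ndufa4l2 at 6.32 ± 1.40 TPM. Cox7a2 stood at 271 ± 43.3 TPM and Cox7a2l, a factor that joins complexes into supercomplexes, at 155.7 ± 13.03 TPM. Cox4i1 (458 ± 63.0 TPM) and Cox8a (499 ± 70.2 TPM) were members, whereas Cox4i2, Cox7a1 and Cox8b, the partners used in lung or muscle, stayed under the minimum at mean CPM values of 0.809, 0.319 and 0.00434. The 3 genes for the c ring of ATP synthase, which all encode the same mature protein, stood at 225 ± 58.0 TPM (Atp5g3), 55.5 ± 11.3 TPM (Atp5g2) and 41.7 ± 5.42 TPM (Atp5g1). In CPM, Atp5g1 (65.5, listed exonic length 4912 bases) stood above Atp5g2 (29.5, 1675 bases), so their order depends on the listed lengths. Just inside the minimum were Cox6a2 at 1.40 CPM, Ndufa4l2 at 2.20 CPM and Ndufb4c at 3.49 CPM, and just outside were Cox6b2, the testis isoform of subunit 6b, at 0.865 CPM and Cox4i2.

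Some of these counts may be shared with copies. Expected counts with a fractional part occurred in at least 1 library for 78 of the 82 members, and 13 rows named as processed copies held counts of their own, up to 23.5 CPM for Atp5pb-ps beside 181 CPM for Atp5pb. The copy Ndufs5-ps stood at 14.1 CPM beside 28.6 CPM for Ndufs5. Atp5o appears as 2 overlapping rows on chromosome 16 (ENSMUSG00000022956 and ENSMUSG00000116933), and their separate values are uncertain.

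Across all libraries, the members were lower in cKO than in control cortex by a small margin, and no single member passed the test with edgeR. The mean of the 82 members' log2(CPM + 0.5), set against the mean of the 3 control libraries of the same region, was 0.07, 0.03 and -0.10 in the control rostral libraries T4, T8 and T70. The cKO rostral libraries T3, T6 and T80 stood at -0.13, -0.10 and -0.09, so the cKO values lay within or just below the control spread. Caudally the controls stood at -0.04, 0.02 and 0.03 and the cKO libraries at -0.09, -0.31 and -0.22, all below the lowest control. Of the 82 members, 68, 54 and 73 lay below the control mean in the rostral cKO libraries T3, T6 and T80, and 62, 75 and 80 in the caudal ones. The summed level of all members was 7271, 7045 and 6643 CPM in control rostral and 6215, 6360 and 6528 CPM in cKO rostral libraries. It was 7087, 7456 and 7449 CPM in control caudal and 6829, 5917 and 6367 CPM in cKO caudal libraries. In neither region did the sums overlap, rostrally by a narrow gap (6643 against 6528 CPM). Abundant members weigh most in this sum. Rostrally, 5 ATP synthase head and shaft genes held 1798 to 1910 CPM in controls and 1456 to 1697 CPM in cKO pups. Rostral sums of complex I overlapped (1549 to 1740 CPM in controls, 1526 to 1633 CPM in cKO pups), as did those of complex IV. Those of complexes II, III and V did not. In bulk tissue a smaller share of cells rich in a transcript and less of that transcript per cell cannot be told apart.

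**Figure D1:**
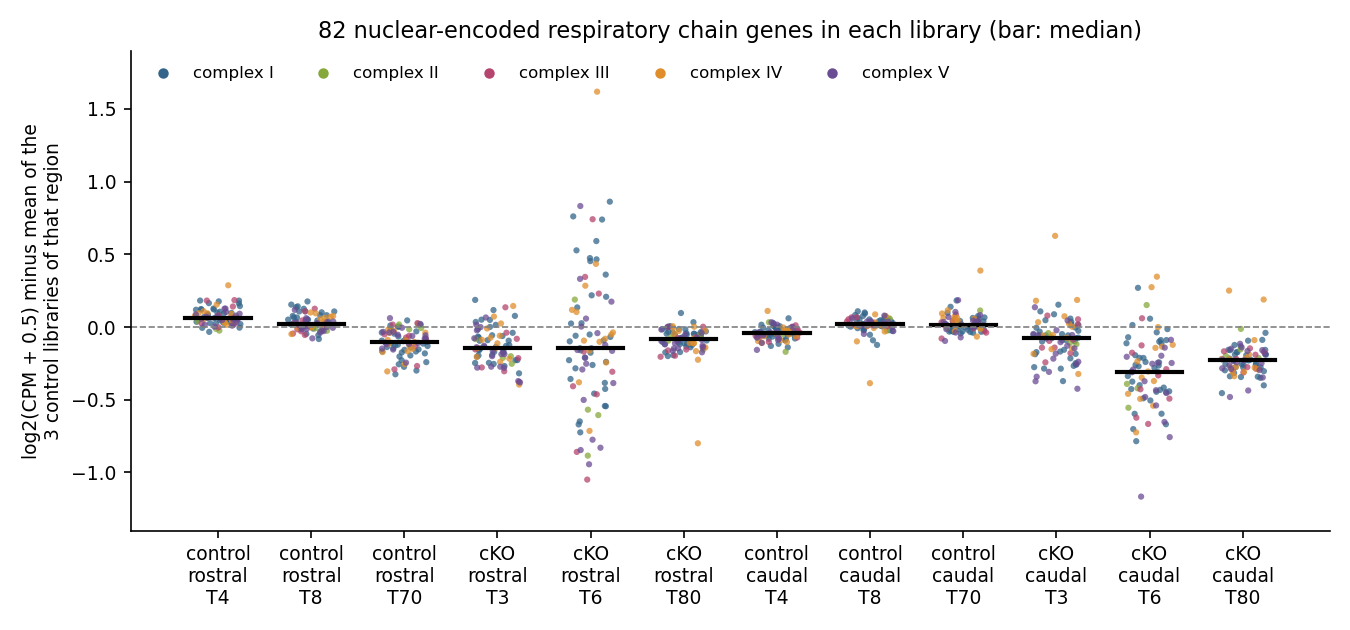
Each point is 1 of the 82 members in 1 library, coloured by complex; the vertical axis is log2(CPM + 0.5) minus the mean of the 3 control libraries of the same region, and the bar is the median. The medians of all 6 cKO libraries lie below 0, and the cKO rostral library of T6 spreads most widely, with an SD over members of 0.47 against 0.05 to 0.25 in the others.

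The library of T6 differed from its group in the pattern within the chain more than in the mean. There 24 of 82 members lay more than 0.5 from the control mean on the log2 scale, against at most 1 in any other rostral library. Lowest were Cyc1 (-1.05), Atp5g3 (-0.94) and Sdhc (-0.88), and highest were Cox6a2 (1.62), Ndufa12 (0.86) and Atp5md (0.83). By role, the mean in T6 was -0.95 for the catalytic subunits of complex III (Cyc1 and Uqcrfs1), -0.55 for the c ring, -0.50 for the catalytic head and shaft of ATP synthase, -0.47 for complex II and -0.32 for the complex I core, but 0.04 for the complex I accessory subunits, 0.11 for the small subunits of complex III and 0.05 for complex IV. In the other rostral cKO libraries the same groups lay between -0.33 and -0.06. The caudal library of T6 had the next widest spread (SD 0.25), with Atp5e at -1.17, and was the lowest library in the mean. Rostral comparisons are therefore given with and without T6.

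In rostral cortex, 62 of 82 members were lower in cKO pups and 20 higher, with a median log2 fold change of -0.10, against 44.4% of 20599 genes lower and a median of 0.04 over all genes tested. No member passed edgeR's quasi-likelihood test at an adjusted p under 0.05, nor did any gene (0.0%). At an unadjusted p under 0.05, 5 members were lower and 0 higher, beside 3.98% of all genes lower and 5.51% higher. For 21 members all 3 cKO libraries lay below all 3 controls, beside 9.89% of all genes, and for 0 members above, beside 9.76%. Without T6 the median was -0.11, 19 members were lower at an unadjusted p under 0.05 (9.28% of all genes) and 0 passed adjustment (smallest adjusted p 0.0663), where 5.01% of all genes passed. Leaving out another animal gave 0 (T4), 1 (T8), 2 (T3), 5 (T70) and 14 (T80) members lower at that unadjusted p, where in the same order 1.88%, 2.17%, 3.98%, 2.66% and 5.44% of all genes were. Sex as a covariate gave 2 members, beside 2.52% of genes. DESeq2 called 0 members and limma voom with library weights 1, Cox5a at -0.33 (SE 0.08, adjusted p = 0.0488), where 4.73% of genes passed.

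Smallest in p rostrally was Cox5a (ENSMUSG00000000088, chr9:57428557-57439709, GRCm39), a matrix-facing subunit of complex IV. It stood at 101, 93.9 and 88.7 CPM in controls and 71.6, 72.3 and 80.6 CPM in cKO pups, without overlap, a log2 change of -0.33 (SE 0.10, adjusted p = 0.410). Next was Uqcrc1 (ENSMUSG00000025651, chr9:108765701-108778691), a core protein of complex III that resembles processing peptidases, at 143, 145 and 134 CPM in controls and 114, 106 and 122 CPM in cKO pups, a log2 change of -0.30 (SE 0.09, adjusted p = 0.430). These groups did not overlap either. Ndufs1, the largest iron-sulfur subunit of complex I, stood at 107, 108 and 108 CPM in controls and 90.3, 93.1 and 95.4 CPM in cKO pups, a log2 change of -0.21 (SE 0.08, adjusted p = 0.487). All 7 core subunits of complex I were lower, with a median of -0.21, while of the 30 accessory subunits 19 were lower and 11 higher. By library, 22 (T3), 16 (T6) and 26 (T80) of the 30 accessory subunits lay below the rostral control mean. All 7 core subunits did so in each of these libraries. Caudally 29 of the 30 accessory subunits were lower, with a median of -0.19, as for the core (-0.19).

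No member with a higher rostral mean had groups that were apart. Ndufa12, an accessory subunit of complex I, stood at 30.5, 32.9 and 27.1 CPM in controls and 31.1, 55.1 and 29.0 CPM in cKO pups, where the middle value is T6 and the other values overlap the controls. Ndufb9 showed the same layout, with 39.0, 39.7 and 33.9 CPM in controls and 38.8, 62.9 and 35.9 CPM in cKO pups. Uqcrh, the hinge protein of complex III, stood at 87.2, 85.2 and 80.9 CPM in controls and 92.8, 107 and 84.5 CPM in cKO pups, a log2 change of 0.18 (SE 0.11, adjusted p = 0.569). Atpif1, which inhibits ATP synthase when it runs in reverse and is no member by name, stood at 121, 128 and 97.9 CPM in controls and 115, 253 and 108 CPM in cKO pups, with T6 alone above the controls.

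In caudal cortex the shift was more even: 78 of 82 members were lower in cKO pups, with a median log2 fold change of -0.20 (a fold of 0.871), against 49.1% of 20705 genes lower and a median of 0.00 over all genes. No member passed the adjusted threshold, which 0.0821% of genes did; the smallest adjusted p was 0.0999. At an unadjusted p under 0.05, 39 members were lower, beside 6.86% of all genes, and 0 higher, beside 7.65%. The groups did not overlap for 40 members, all lower, beside 11.3% of all genes. DESeq2 called 8 members lower (2.51% of genes passed) and limma voom with library weights 6 (1.80% of genes); Atp5d, Atp5g1, Atp5k, Ndufa11 and Ndufs8 were in both sets. Leaving out 1 animal gave 17 (T8), 19 (T70), 21 (T80), 33 (T4), 41 (T6) and 59 (T3) members lower at an unadjusted p under 0.05, beside 3.93%, 4.42%, 6.22%, 4.63%, 8.96% and 10.2% of all genes in that order, and sex as a covariate gave 21, beside 5.24%. Without T6 Atp5d passed in edgeR (0.768% of genes did). Lower values were found in all 18 members of complex V, all 9 of complex III, 36 of 37 of complex I, 12 of 14 of complex IV and 3 of 4 of complex II. An unadjusted p under 0.05 was reached by 13, 5, 16, 4 and 1 of these.

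Atp5d (ENSMUSG00000003072, chr10:79974466-79981652), the delta subunit of the rotating shaft of ATP synthase, had the smallest p. Its caudal level was 103, 104 and 102 CPM in controls and 79.1, 79.1 and 84.1 CPM in cKO pups, a log2 change of -0.34 (SE 0.06, adjusted p = 0.0999). The groups lay further apart than the spread within either, at SD 0.998 and 2.92 CPM. Ndufa11 (ENSMUSG00000002379, chr17:57024767-57029141), an accessory subunit at the membrane arm of complex I, stood at 32.2, 33.2 and 32.7 CPM in controls and 25.2, 24.2 and 26.9 CPM in cKO pups, a log2 change of -0.36 (SE 0.07, adjusted p = 0.130). Ndufs8 (ENSMUSG00000059734, chr19:3958863-3962774), a core subunit that carries iron-sulfur clusters, stood at 37.6, 42.1 and 39.7 CPM in controls and 32.5, 30.0 and 31.3 CPM in cKO pups, a log2 change of -0.34 (SE 0.07, adjusted p = 0.149). In both genes the groups were apart.

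Atp5k (ENSMUSG00000050856, chr5:108581110-108582314), subunit e, which helps ATP synthase to form dimers, stood at 58.4, 63.9 and 74.1 CPM in control and 51.3, 41.3 and 46.5 CPM in cKO caudal libraries, a log2 change of -0.49 (SE 0.11, adjusted p = 0.159). Rostrally the same gene stood at 56.7, 56.4 and 43.8 CPM in controls and 54.4, 52.1 and 47.8 CPM in cKO pups, with overlap. The largest caudal decrease in the mean was that of Atp5e, the epsilon subunit of the shaft, at 57.3, 58.7 and 60.2 CPM in controls and 50.4, 25.9 and 43.3 CPM in cKO pups, a log2 change of -0.56 (SE 0.22, adjusted p = 0.330); the lowest value is that of T6. The 3 c-ring genes were all lower, Atp5g3 at -0.46 (SE 0.12, adjusted p = 0.191), Atp5g1 at -0.27 (SE 0.07, adjusted p = 0.176) and Atp5g2 at -0.22 (SE 0.07, adjusted p = 0.266).

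The 4 caudal members higher in cKO pups did not approach the threshold. Cox6a2 stood at 0.809, 0.503 and 1.22 CPM in controls and 1.52, 1.17 and 1.06 CPM in cKO pups, overlapping, a log2 change of 0.57 (SE 0.32, adjusted p = 0.447). Ndufa4l2 gave 0.14 (SE 0.19, adjusted p = 0.772). Sdha, the flavoprotein of complex II, stood at 183, 176 and 178 CPM in controls and 165, 199 and 177 CPM in cKO pups, a log2 change of 0.01 (SE 0.08, adjusted p = 0.949), and Ndufc2 gave 0.01 (SE 0.09, adjusted p = 0.965). The partner of Sdha, the iron-sulfur subunit Sdhb, stood at 77.9, 84.1 and 80.3 CPM in controls and 74.8, 54.8 and 69.6 CPM in cKO pups, below every control.

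**Figure D2:**
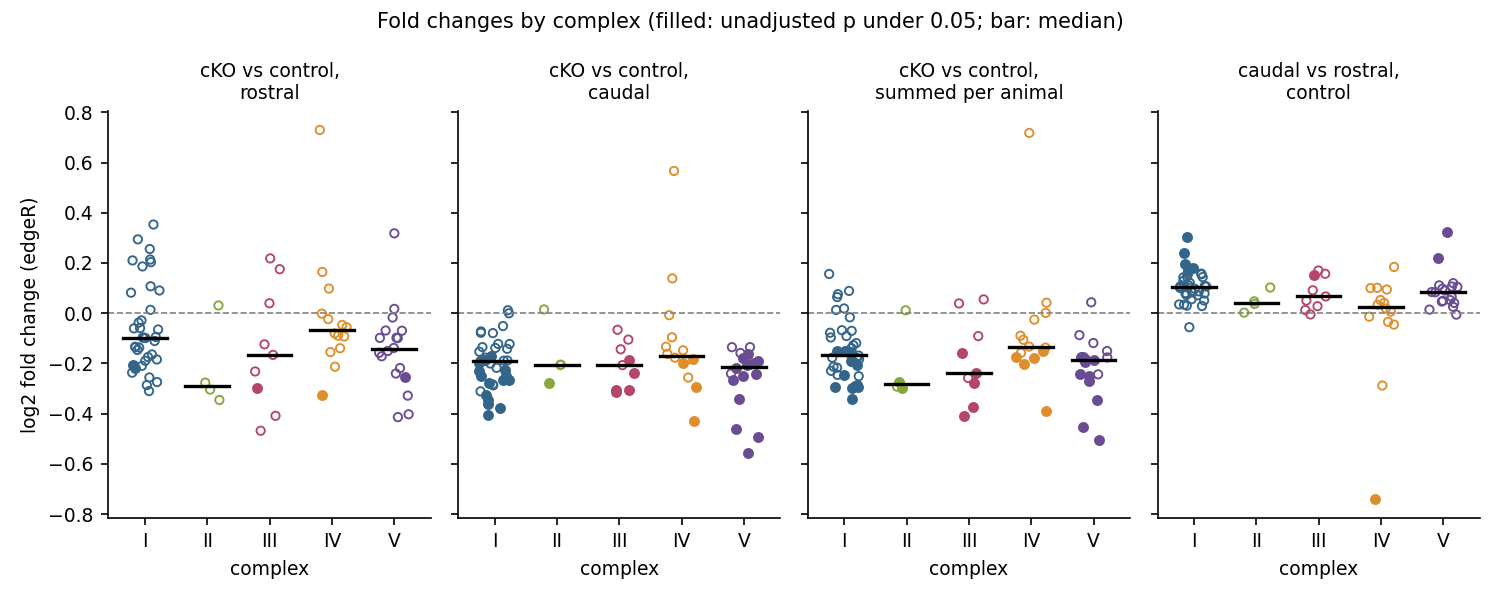
Each point is the edgeR log2 fold change of 1 member, by complex; filled points have an unadjusted p under 0.05 and bars are medians. The caudal genotype panel lies almost wholly below 0 (median -0.20), the rostral one is wider (median -0.10), and the comparison of caudal with rostral control cortex lies slightly above 0 (median 0.09).

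Promoters of the 4 caudal members with the smallest p are shown because nuclear respiratory genes share binding motifs by which they can be controlled together: the core of the NRF1 motif (GCATGCG), the core motif of ETS factors including GABP (CCGGAA) and the YY1 motif (AAGATGGCG). Sequences are from RefSeq, build GRCm38.p6, an earlier build than that of the counts, and run 5′ to 3′ on the gene's strand from 250 bases before the start to 30 after it, with motif matches on either strand in capitals. Where 8 capitals stand together, the NRF1 core matches on both strands and the matches overlap; where 6 stand together, the ETS core matches on the opposite strand.
Atp5d promoter, chr10:80142025-80142304, plus strand: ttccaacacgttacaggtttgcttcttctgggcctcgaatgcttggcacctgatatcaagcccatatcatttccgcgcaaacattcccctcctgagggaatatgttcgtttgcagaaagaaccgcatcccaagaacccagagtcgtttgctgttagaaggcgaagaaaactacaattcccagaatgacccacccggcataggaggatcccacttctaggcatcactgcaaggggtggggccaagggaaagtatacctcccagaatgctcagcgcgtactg
Ndufa11 promoter, chr17:56717512-56717791, plus strand: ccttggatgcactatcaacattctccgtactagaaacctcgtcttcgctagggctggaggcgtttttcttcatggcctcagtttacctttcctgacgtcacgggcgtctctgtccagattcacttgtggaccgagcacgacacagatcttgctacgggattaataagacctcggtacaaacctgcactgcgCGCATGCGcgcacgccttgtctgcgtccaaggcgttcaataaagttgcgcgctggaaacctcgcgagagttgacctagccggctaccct
Ndufs8 promoter, chr19:3912745-3913024, minus strand: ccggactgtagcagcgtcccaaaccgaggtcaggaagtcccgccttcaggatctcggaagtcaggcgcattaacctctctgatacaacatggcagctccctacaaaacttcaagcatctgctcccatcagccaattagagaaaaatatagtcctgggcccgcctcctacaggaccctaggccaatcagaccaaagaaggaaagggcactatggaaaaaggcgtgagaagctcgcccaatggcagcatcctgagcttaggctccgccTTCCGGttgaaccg
Atp5k promoter, chr5:108434370-108434649, minus strand: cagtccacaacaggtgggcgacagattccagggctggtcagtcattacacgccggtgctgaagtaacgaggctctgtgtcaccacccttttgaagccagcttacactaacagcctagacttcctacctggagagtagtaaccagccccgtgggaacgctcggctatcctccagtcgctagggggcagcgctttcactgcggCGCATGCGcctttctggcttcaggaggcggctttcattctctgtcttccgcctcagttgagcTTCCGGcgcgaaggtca
Ndufa11 and Atp5k carry the NRF1 core, Ndufs8 and Atp5k the ETS core, and none of the searched letters lie in the Atp5d window. A RefSeq window of 300 bases, from 250 before to 50 after the start, matched 65 of the 81 member symbols. The NRF1 core was found in 10 of these (15.4%) and in 3.64% of all 27025 windows. The ETS core was found in 26 (40.0%), against 15.2%, and the YY1 motif in 6 (9.23%), against 1.49%. At least 1 of the 3 was found in 35 windows (53.8%), against 18.8% of all windows. The set of all windows was not limited to genes with a mean CPM of 1 or more, as the members were. No share among windows of similarly expressed genes was taken. Among the members' windows, Uqcrc1 held the NRF1 core, Sdhb the NRF1 and ETS cores, and Cox5a and Atp5b none of the 3.

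Adding the rostral and caudal counts of each animal gave 3 values against 3, each from 1 pup. There 69 of 82 members were lower in cKO pups and 13 higher (47.0% and 53.0% of 22924 genes) and the median log2 fold change was -0.17, against 0.02 over all genes. At an unadjusted p under 0.05, 35 members were lower, beside 7.15% of all genes, and 0 higher, beside 8.24%. The animals did not overlap for 49 members, all lower, beside 13.4% of all genes. No member passed the adjusted threshold in edgeR, which 0.179% of genes did. When 1 animal was left out, 13 (T4), 13 (T8), 23 (T70), 31 (T80), 42 (T3) and 45 (T6) members were lower at an unadjusted p under 0.05, and so were 3.71%, 3.82%, 4.32%, 9.42%, 6.92% and 9.67% of all genes in that order. Sex as a covariate gave 16 members and 4.27% of genes.

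The smallest adjusted p was that of Cox5a, at -0.39 (SE 0.09, adjusted p = 0.145), followed by Ndufs8 at -0.29 (SE 0.07, adjusted p = 0.160) and Uqcrc1 at -0.28 (SE 0.07, adjusted p = 0.176). With DESeq2 these 3 genes and Ndufa11 passed (adjusted p 0.00627, 0.0115, 0.0171 and 0.0193, in the order Cox5a, Ndufs8, Uqcrc1, Ndufa11), where 3.51% of genes did, and limma voom with library weights called the same 4 genes, where 3.21% did. Without animal T6, edgeR called 9 members lower, where 2.92% of genes passed: Cox5a, Uqcrc1, Ndufa11, Ndufs8, Cyc1, Uqcrfs1, Atp5e, Atp5h and Atp5o (ENSMUSG00000022956). Cyc1, which hands electrons to cytochrome c, was then at -0.26 (SE 0.04, edgeR adjusted p = 0.0298), against -0.41 (SE 0.14, adjusted p = 0.258) with T6. All 5 members of the catalytic head and shaft of ATP synthase were lower at an unadjusted p under 0.05, with a median of -0.24. On the higher side the smallest p belonged to Cox6a2 at 0.72 (SE 0.45, adjusted p = 0.458), Ndufa12 at 0.16 (SE 0.18, adjusted p = 0.664) and Ndufa6 at 0.06 (SE 0.09, adjusted p = 0.737). In each the rostral library of T6 was the highest of the 12, and without T6 they stood at -0.04, -0.10 and -0.01.

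Taking all libraries at once, 12 members had every one of the 6 cKO libraries below every one of the 6 control libraries, and none had them above. Over all 21599 genes the share with every cKO library below was 2.13%. Without the rostral library of T6 the count was 14, beside 2.60%. These were counted on values scaled over the 12 libraries, and a pair of libraries from 1 pup is not independent. The 12 were Sdhb and Sdhc of complex II, Ndufa9, Ndufs8 and Ndufv1 of complex I, Uqcrc1, Uqcrfs1 and Cyc1 of complex III, Cox5a of complex IV, and Atp5a1, Atp5b and Atp5o (ENSMUSG00000116933) of complex V. Atp5b, the catalytic beta subunit of ATP synthase, ranged from 789 to 864 CPM in controls and from 620 to 758 CPM in cKO pups. Uqcrc1 ranged from 134 to 148 CPM in controls and from 106 to 126 CPM in cKO pups, and Cox5a from 88.7 to 106 CPM and from 59.0 to 80.6 CPM. The narrowest gap was that of Sdhc, with a lowest control at 76.2 CPM and a highest cKO library at 75.8 CPM, and the next that of Cyc1, at 71.7 and 71.1 CPM.

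**Figure D3:**
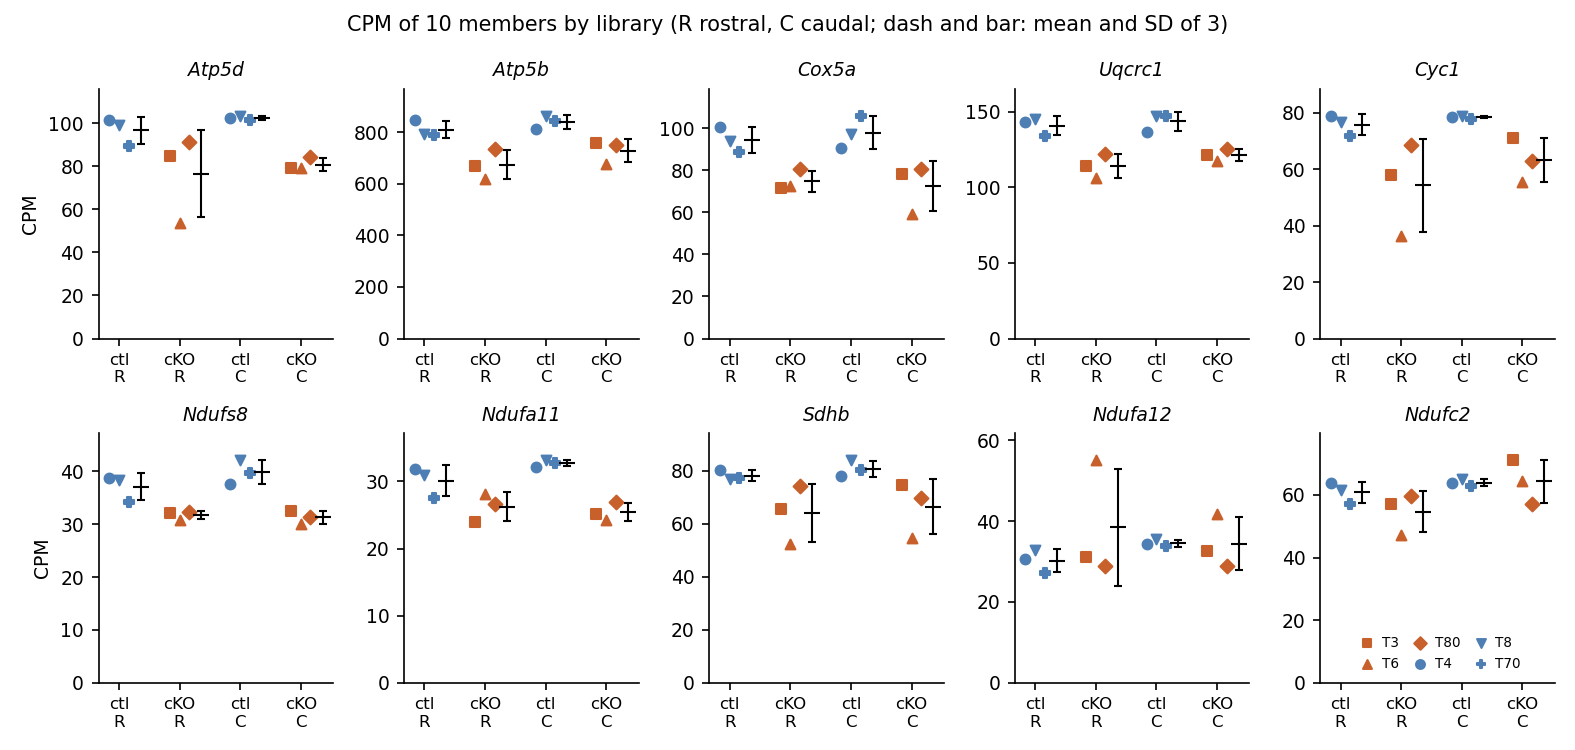
CPM of 10 members in each library, with 1 marker shape per animal and the mean and SD of 3 libraries beside each group. In Cox5a, Uqcrc1, Cyc1, Atp5b, Ndufs8 and Sdhb no cKO library reaches a control library in either region, whereas Ndufa12 is high in T6 and Ndufc2 overlaps caudally.

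Within control pups, caudal cortex held slightly more of these RNAs than rostral cortex: 74 of 82 members were higher caudally, with a median log2 fold change of 0.09, against 50.9% of 20461 genes higher and a median of 0.00. No member passed the adjusted threshold in a comparison where 12.2% of genes did. At an unadjusted p under 0.05, 9 members were higher, beside 13.3% of all genes, and 1 lower (Cox6a2), beside 12.5%. The groups were apart for 15 members higher and 2 lower, beside 16.4% and 15.0%. These shares are close to or below those of all genes. Leaving out T8, T70 or T4 gave 4, 1 and 23 members higher at that unadjusted p, where 9.0%, 11.4% and 11.3% of all genes were. Without T4, Uqcr10 passed at 0.29 (SE 0.06, edgeR adjusted p = 0.0351), where 8.21% of genes did, and without T70, Cox6a2 passed at -1.26 (SE 0.27, edgeR adjusted p = 0.0354), where 7.19% did. All 30 complex I accessory subunits had a fitted change above 0, but within animals 14 (T4), 27 (T8) and 30 (T70) of them were higher caudally.

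The smallest p belonged to Atp5md, a small membrane subunit of ATP synthase, at 76.5, 75.1 and 64.9 CPM rostrally and 79.3, 86.1 and 86.3 CPM caudally (T4, T8, T70), a log2 change of 0.22 (SE 0.07, adjusted p = 0.0648). All its caudal values lay above its rostral ones. Ndufb11, an X-linked accessory subunit, gave 0.18 (SE 0.06, adjusted p = 0.0863) and Ndufa12 0.19 (SE 0.07, adjusted p = 0.106). On the lower side, Cox6a2 stood at 1.80, 1.41 and 1.02 CPM rostrally and 0.809, 0.503 and 1.22 CPM caudally, a log2 change of -0.74 (SE 0.31, adjusted p = 0.170), with overlap. Ndufa4l2 gave -0.29 (SE 0.14, adjusted p = 0.211) and Ndufs1 -0.06 (SE 0.04, adjusted p = 0.475). With the animal as a block, since both pieces come from 1 pup, 2 members passed as higher caudally (15.4% of genes passed): Ndufa13 at 0.31 (SE 0.08, edgeR adjusted p = 0.0250) and Ndufa3 at 0.25 (SE 0.07, edgeR adjusted p = 0.0480), both accessory subunits of complex I.

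The sign of the regional difference varied between animals. The median member was higher caudally by 0.08 in T8 and 0.20 in T70 and lower by 0.03 in T4 on the log2 scale, with 69, 76 and 23 of 82 members higher. Members' deviations from the control mean of the region correlated with log2 exonic length at -0.35 (T4), -0.29 (T8) and 0.40 (T70) rostrally. In the caudal control libraries the values were 0.11, 0.16 and -0.23. The part of gene length in the regional difference was not tested. Among the cKO pups T3, T6 and T80 the medians were 0.13, -0.17 and -0.06, with 72, 24 and 24 members higher. Over the 3 cKO pups 32 members were higher and 50 lower caudally (45.7% and 54.3% of 20944 genes), the median was -0.04, and 0 passed an unadjusted p under 0.05 in either direction, beside 0.668% of all genes higher and 0.993% lower. The groups were apart for 1 member higher and 0 lower, beside 2.65% of all genes higher and 3.11% lower. Without T6 that median was 0.03. The closest were Ndufc2 (0.23 (SE 0.13, adjusted p = 0.9999)), Sdhd (0.20 (SE 0.15, adjusted p = 0.9999)) and Atp5c1 (0.13 (SE 0.10, adjusted p = 0.9999)) on the higher side and Ndufv3 (-0.29 (SE 0.19, adjusted p = 0.9999)), Ndufa3 (-0.19 (SE 0.14, adjusted p = 0.9999)) and Atp5k (-0.15 (SE 0.12, adjusted p = 0.9999)) on the lower side.

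**Figure D4:**
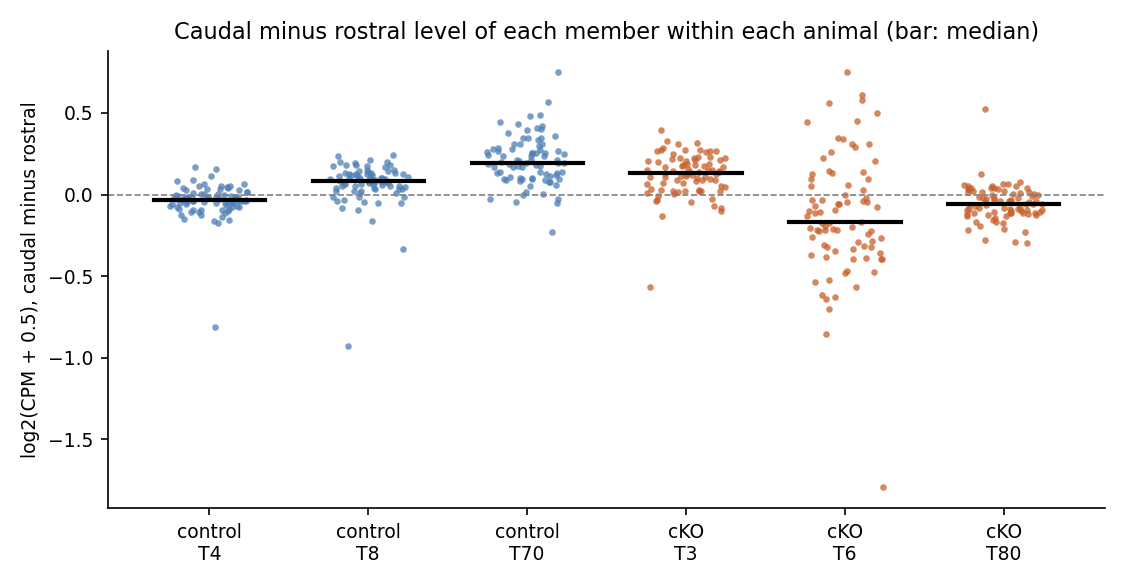
Each point is the caudal minus rostral level of 1 member in 1 animal, as a difference of log2(CPM + 0.5); bars are medians. Controls T8 and T70 and cKO T3 lie mostly above 0, and T4, T6 and T80 mostly below, so genotype does not sort the animals.

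Whether the genotype difference itself differed between regions was tested as an interaction. Its estimate was below 0, that is lower caudally, for 62 of 82 members, against 55.6% of 21599 genes, with a median of -0.11 against -0.03 over all genes. No member and no gene (0.0%) passed the adjusted threshold, and 2 members were lower at an unadjusted p under 0.05, beside 2.30% of all genes (0 were higher, beside 1.25%): Atp5k at -0.47 (SE 0.18, adjusted p = 0.9997) and Ndufa3 at -0.43 (SE 0.17, adjusted p = 0.9997). Next was Ndufa13 at -0.41 (SE 0.20, adjusted p = 0.9997). On the higher side Ndufs1 gave 0.14 (SE 0.10, adjusted p = 0.9997), Ndufc2 0.16 (SE 0.14, adjusted p = 0.9997) and Ndufa4l2 0.36 (SE 0.35, adjusted p = 0.9997). DESeq2 and limma voom also called 0. Without T6 the median was -0.05. The genotype and region comparisons share libraries, so their values are not independent of each other.

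The 13 subunits encoded by mitochondrial DNA stood opposite in sign to the nuclear ones in cKO against control cortex. Their listed levels were uneven: mt-Co2, mt-Co3, mt-Atp6 and mt-Atp8 had means of 1.185 to 2.66 CPM, and the other 9 of 170 to 7570 CPM. Relative to the controls of the same region, their mean log2 level was 0.22, 1.46 and 0.27 in the cKO rostral libraries T3, T6 and T80, and 0.29, 0.87 and 0.19 in the caudal ones. The controls ranged from -0.24 to 0.15 rostrally and from -0.21 to 0.16 caudally, below every cKO library of their region, by a narrow margin outside T6. Opposite signs also occurred among controls. In T4 the mitochondrial mean was -0.24 rostrally and 0.16 caudally, beside 0.07 and -0.04 for the members. In T70 it was 0.15 and -0.21, beside -0.10 and 0.03. In T8 both means were above 0 in both regions. All 13 were higher in both regions, with a median log2 fold change of 0.86 rostrally, 0.54 caudally and 0.81 on summed animals. None passed the adjusted threshold. In that order 1, 5 and 12 were higher at an unadjusted p under 0.05, beside 5.51%, 7.65% and 8.24% of all genes. On summed animals mt-Co2, a catalytic subunit of complex IV, gave 0.79 (SE 0.22, edgeR adjusted p = 0.213). In control pups all 13 were lower caudally, with a median of -0.70. Of these, 11 passed the adjusted edgeR threshold, where 12.2% of all genes passed in either direction. There mt-Atp8 fell by 1.11 on the log2 scale (SE 0.26, edgeR adjusted p = 0.0207). With these genes removed before scaling, the members' medians were -0.10 rostrally, -0.20 caudally and -0.17 on summed animals, as with them.

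**Figure D5:**
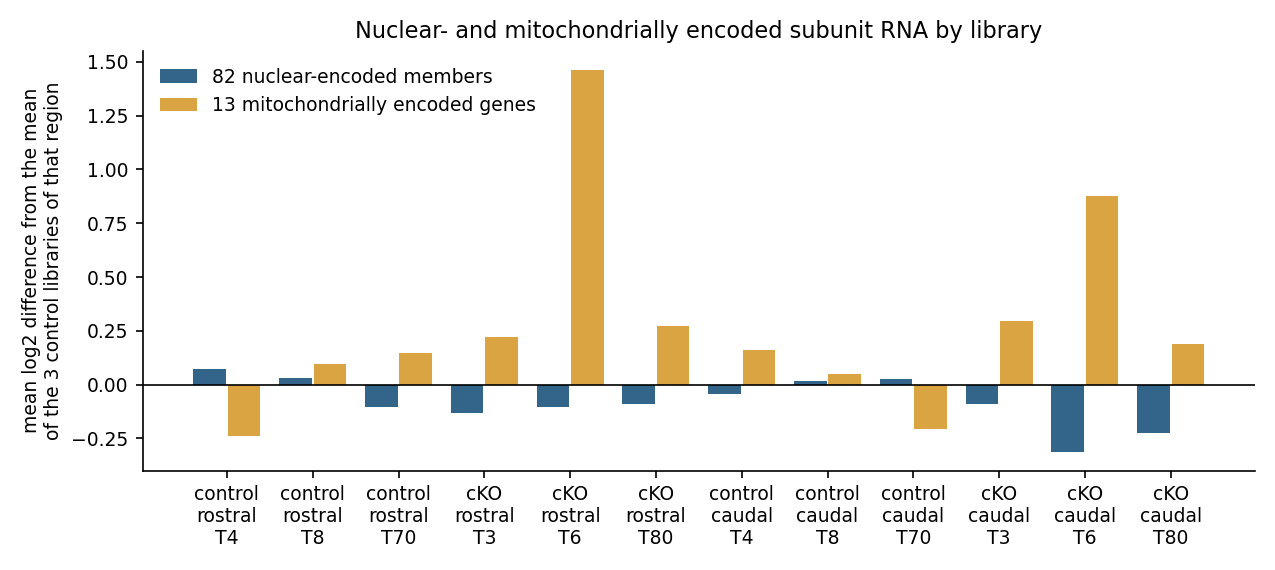
Mean log2 difference from the 3 control libraries of the same region for the 82 nuclear-encoded members (blue) and the 13 mitochondrially encoded genes (yellow). In all 6 cKO libraries the nuclear bar is below 0 and the mitochondrial bar above it, most of all in T6 (1.46 rostrally).

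The genes that build or feed the chain were listed apart from the members, and none of them passed the adjusted threshold between genotypes. Of all genes, 0.0% (rostral), 0.0821% (caudal) and 0.179% (summed animals) passed. On summed animals 47.0% of all genes were lower and 53.0% higher. Of 18 complex I assembly factors 16 were lower in cKO pups on summed animals, with a median of -0.16, and Tmem70 gave -0.23 (SE 0.09, adjusted p = 0.284). Of 10 assembly factors of complexes II and III, 8 were lower, with a median of -0.10; Uqcc2, needed for cytochrome b, gave -0.31 (SE 0.09, adjusted p = 0.203). Of 25 for complex IV, 22 were lower, with a median of -0.12; Higd1a gave -0.39 (SE 0.13, adjusted p = 0.265) and Coa3 -0.32 (SE 0.11, adjusted p = 0.265). Of the 4 for ATP synthase, 3 were lower, with a median of -0.12. Ndufab1, the acyl carrier protein in complex I that the name rule leaves out, gave -0.21 (SE 0.08, adjusted p = 0.297).

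Upstream of the chain, 17 of 20 genes of pyruvate entry and the TCA cycle were lower in cKO pups on summed animals, with a median of -0.11. At an unadjusted p under 0.05 in edgeR 8 of them were lower, beside 7.15% of all genes. Mdh2, malate dehydrogenase, gave -0.29 (SE 0.07, adjusted p = 0.181), Idh3a -0.25 (SE 0.06, adjusted p = 0.183) and citrate synthase Cs -0.26 (SE 0.07, adjusted p = 0.192). Of 18 genes for cytochrome c, carriers and related proteins of the mitochondrial membranes, 16 were tested and 14 were lower, with a median of -0.19; the ADP/ATP carrier Slc25a4 gave -0.22 (SE 0.06, adjusted p = 0.208). Of 13 genes of coenzyme Q synthesis 9 were lower, with a median of -0.09. The 22 regulators of mitochondrial biogenesis did not share this sign: 14 were higher and 8 lower, with a median of 0.05, and Nfe2l2 gave 0.44 (SE 0.12, adjusted p = 0.201) and the ETS factor Gabpa 0.22 (SE 0.08, adjusted p = 0.285). Between regions in control pups, 2 of these genes passed, both higher caudally, in a comparison where 12.2% of all genes passed. They were Etfb, which passes electrons from fatty acid oxidation, at 0.36 (SE 0.09, edgeR adjusted p = 0.0265) and Slc25a27 at 0.24 (SE 0.07, edgeR adjusted p = 0.0399).

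Marker levels of several cell types also differed between genotypes. All 5 astrocyte markers were lower in cKO pups in both regions (log2 change -0.03 for Gja1 rostrally and 0.00 for Slc1a3 caudally), 1 (Slc7a10) passing on summed animals, and their mean log2 level against the controls was -0.39, -2.07 and -0.62 in the rostral and -0.78, -0.27 and -0.50 in the caudal cKO libraries T3, T6 and T80. The 5 markers of the oligodendrocyte lineage were also lower in both regions, 3 passing on summed animals, where 0.179% of all genes passed. They summed to 351 to 442 CPM over the 6 control and 238 to 338 CPM over the 6 cKO libraries. Neuron markers summed to 5382 to 6181 CPM in controls and 5432 to 8310 CPM in cKO pups, with the highest sum in the rostral library of T6. Their mean log2 level against the controls was -0.24, 0.54 and -0.21 in the rostral cKO libraries T3, T6 and T80. The rostral controls ranged from -0.05 to 0.06. In the caudal cKO libraries it was 0.07, 0.04 and -0.02. Choroid plexus markers summed to 2.57 to 3.62 CPM in control rostral libraries and to 383 CPM in the cKO rostral library of T3, and meningeal markers to 88.5 CPM in the caudal library of T3 against 285 to 563 CPM in the other caudal libraries. The 5 striatal markers were lower in both regions, with a median log2 change of -1.34 rostrally, -0.45 caudally and -1.03 on summed animals. None passed the adjusted threshold, and 4, 0 and 3 of these markers were lower at an unadjusted p under 0.05, beside 3.98%, 6.86% and 7.15% of all genes. They summed to 215, 67.4 and 141 CPM in the control rostral libraries T4, T8 and T70 and to 46.3, 52.5 and 65.4 CPM in the cKO rostral libraries T3, T6 and T80, without overlap. Erythroid markers were also lower for 5 of 5 in both regions (median -0.42 rostrally, -0.57 caudally and -0.55 on summed animals). On summed animals 3 of them were lower at an unadjusted p under 0.05, beside 7.15% of all genes. They summed to 336 to 600 CPM in controls and 149.5 to 425.5 CPM in cKO pups, with overlap. On summed animals the medians of the other lists were 0.53 (meningeal fibroblast), 0.95 (choroid plexus), 0.18 (pericyte and smooth muscle), 0.30 (microglia), 0.01 (endothelium), -0.21 (skeletal or heart muscle), 0.24 (cortex) and 0.05 (neuron), with none of their genes past the adjusted threshold. No marker of these 12 lists was at 0 in any library. The caudal library lowest in the members, T6, was the highest of all 12 in summed astrocyte markers, at 1225 CPM, of which Slc1a3, a glutamate transporter, made up 787 CPM. Their part in the members' levels was not tested.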

How the data were processed

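RNA was measured by sequencing of 12 libraries from 6 pups. Per the labels' protocols, mRNA was captured from total RNA and made into KAPA mRNA HyperPrep libraries. Per the submitters' processing notes, STAR 2.7.8a, featureCounts 2.0.3 and genome build GRCm39 were used; annotation release, strandedness and multi-mapped reads were not given in the sources used here. Values in the deposited files are expected counts per gene that need not be whole (9.69% to 14.3% of a library's values have a fraction). They were rounded, and 0 columns were left out. Count tests had been planned for whole counts.

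Each comparison was fitted with edgeR 4.0.16 (R 4.3.3): filterByExpr, TMM scaling, robust quasi-likelihood test, Benjamini-Hochberg adjustment over all genes tested, threshold 0.05. Standard errors are the log2 fold change divided by the root of F. There were 6 comparisons: genotype in each region, genotype on counts summed per animal, region in each genotype, and their interaction. Printed CPM values were scaled by TMM over all 12 libraries; levels on the log2 scale used a pseudocount of 0.5. Alternatives were DESeq2 1.42.0, scaling by RLE or upper quartile, omission of the low-count filter, a minimum of 1 CPM in 3 libraries, removal of mitochondrially encoded genes, sex as a covariate, 1 fit over all 12 libraries, the animal as a block, each animal left out, and limma 3.58.1 voom with library weights, added after the data were seen. The scripts' tests were checked on simulated data with planted changes larger than most of the members' and without pairing of libraries. That check does not cover shifts as small as the members'.

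Rostral and caudal libraries of 1 animal are paired by the animal number in the titles. The correlation of their deviations from the group means, over all genes, was 0.35 (T4), 0.36 (T8), 0.39 (T70), -0.01 (T3), 0.00 (T6) and 0.54 (T80). The precision rests on 3 animals per group. In the main genotype comparisons, p-values measure the spread between these pups. The main region and interaction fits had no term for the animal. Their p-values measure the spread between libraries and ignore the pairing, which only the fits with the animal as a block use.

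Named members were the called ones in each comparison, filled up to 3 per direction by the smallest p, the highest and lowest TPM of each complex, isoform pairs, the members beside the minimum, and at most 3 genes of each other list by p; members outside this rule (Atp5e, Atp5b, Sdhb and others used as examples) or values outside the comparison that named a member were chosen after their values were seen. The members and the 22 lists (10 pathway, 12 marker; 203 of 204 genes matched) were chosen with earlier results of these data known. Lists are described by counts and medians, without a test of their own.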

Additional observations from a re-analysis of the deposited data

How the results depend on the processing

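No comparison's median over the members changed sign except that of caudal against rostral cKO cortex, which ranged from -0.11 (without T3) to 0.03 (without T6) when 1 animal was left out. The other medians ranged from -0.15 to -0.08 (genotype, rostral), -0.26 to -0.16 (genotype, caudal), -0.19 to -0.14 (genotype, summed), 0.03 to 0.13 (region, control) and -0.18 to -0.04 (interaction). The number of members passing an adjusted p under 0.05, 0 in edgeR for all 6 comparisons, depended on the tool: DESeq2 gave 8 (caudal genotype), 4 (summed) and 3 (region in control), and limma voom with library weights, added after the data were seen, gave 1 (rostral), 6, 4 and 1 in the order rostral, caudal, summed and region in control. For region in control 13.8% of all genes passed with DESeq2 and 15.7% with limma voom. Without a filter on low counts the numbers were 6 (caudal), 1 (summed) and 10 (region in control), where 0.839%, 0.754% and 9.05% of all genes passed. Leaving out 1 animal gave 0 to 1 (caudal), 0 to 9 (summed), 0 to 1 (region in control) and 0 to 0 in the other comparisons. With the animal as a replicate block, 2 members passed for region in control and 0 for region in cKO and for the interaction; it changed no other call. Scaling by RLE or upper quartile, removal of mitochondrially encoded genes, the stricter filter, sex as a covariate and 1 fit over all libraries gave 0 in each comparison where they were run. Members with all cKO libraries below all controls numbered 12, and 14 without the rostral library of T6. Signs were checked for the members named by smallest p, 3 per direction in each comparison, and reversed for 5 of them, none called. Ndufc2 in the caudal genotype comparison (0.01, SE 0.09) was not among those checked. For Sdha caudally it was -0.0076 with limma voom and -0.016 with sex as a covariate, and -0.069 (without T6) to 0.076 (without T3) with 1 animal left out, with -0.00042 without T8. On summed animals, leaving out 1 animal gave -0.043 to 1.06 for Cox6a2, -0.098 to 0.29 for Ndufa12 (-0.048 with limma voom) and -0.0084 to 0.14 for Ndufa6, and in the interaction -0.0019 to 0.763 for Ndufa4l2; in these 4 the lowest value was that without T6. The cause was not tested.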
